A study of Mus musculus with 20 samples.

Results

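The 10 genes described here are core components of the circadian clock and its direct outputs: Arntl, Clock, Npas2, Per1, Per2, Per3, Nr1d1, Nr1d2, Dbp and Tef. They were taken by symbol from a table of 21705 genes measured in mouse heart ventricle, and each symbol matched 1 row. The data are 20 poly(A) RNA libraries, with 5 replicates of each combination of 2 genotypes and 2 injections. The knockout (Acsl1H-/-) lacks Acsl1, a long-chain acyl-CoA synthetase that feeds fatty acids into oxidation, in the heart, and the controls were Acsl1flox/flox littermates. All were male C57Bl/J6 mice, and both genotypes received tamoxifen (75 mg/kg on 4 days) at 6 to 8 weeks of age. Rapamycin, which inhibits the mTOR kinase, was injected at 1 mg/kg every day for 2 weeks, and the other mice received its vehicle. Ventricles were frozen 2 weeks after the tamoxifen. The sources used here name neither the Cre line, nor the cells it acts in, nor the time of day at which hearts were taken. The submitters state that the 5 replicates are biological, and the libraries count as separate animals only as far as that statement goes.

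In the circadian clock, ARNTL (BMAL1) pairs with CLOCK, or with its relative NPAS2, and switches on genes that carry E-boxes, among them the Per and Nr1d genes. PER proteins, together with cryptochromes, then block that pair, and the nuclear receptors NR1D1 and NR1D2 (REV-ERB alpha and beta) repress Arntl, Clock and Npas2. DBP and TEF are transcription factors of the PAR bZIP family that carry the rhythm to output genes through D-boxes. In rodent heart, as in other organs, Arntl and Npas2 peak at a time of day opposite to Dbp and the Per genes.

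The start-site windows of 4 members are shown because the elements of this loop can be read in them. Each runs from 250 bases before to 50 after the annotated start (RefSeq, GRCm38.p6), is written 5′ to 3′ on the gene's strand, and carries in capitals the E-box CACGTG, the D-box TTANGTAA or the core of the ROR element, TAGGTCA, to which NR1D1 and NR1D2 bind, searched on both strands with no matches that overlapped.
Arntl, chr7:113207261-113207560, plus strand: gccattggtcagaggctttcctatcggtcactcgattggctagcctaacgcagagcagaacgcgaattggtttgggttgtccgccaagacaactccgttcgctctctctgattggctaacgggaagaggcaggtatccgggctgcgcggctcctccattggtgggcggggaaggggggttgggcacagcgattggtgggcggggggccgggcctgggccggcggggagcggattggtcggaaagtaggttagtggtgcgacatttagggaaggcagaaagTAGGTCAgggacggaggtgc
Per1, chr11:69098699-69098998, plus strand: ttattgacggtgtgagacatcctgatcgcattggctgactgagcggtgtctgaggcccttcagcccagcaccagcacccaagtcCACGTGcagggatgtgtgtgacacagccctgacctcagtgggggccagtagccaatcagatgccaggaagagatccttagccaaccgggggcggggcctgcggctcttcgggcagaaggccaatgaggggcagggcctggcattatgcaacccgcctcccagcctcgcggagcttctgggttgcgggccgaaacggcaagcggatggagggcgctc
Per3, chr4:151044616-151044915, minus strand: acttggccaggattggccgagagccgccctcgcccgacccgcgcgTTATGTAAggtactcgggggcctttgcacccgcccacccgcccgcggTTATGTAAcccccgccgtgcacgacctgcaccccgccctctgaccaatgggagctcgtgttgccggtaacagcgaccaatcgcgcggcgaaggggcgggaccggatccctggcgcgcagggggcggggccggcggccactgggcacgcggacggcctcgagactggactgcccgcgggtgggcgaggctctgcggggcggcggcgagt
Tef, chr15:81811164-81811463, plus strand: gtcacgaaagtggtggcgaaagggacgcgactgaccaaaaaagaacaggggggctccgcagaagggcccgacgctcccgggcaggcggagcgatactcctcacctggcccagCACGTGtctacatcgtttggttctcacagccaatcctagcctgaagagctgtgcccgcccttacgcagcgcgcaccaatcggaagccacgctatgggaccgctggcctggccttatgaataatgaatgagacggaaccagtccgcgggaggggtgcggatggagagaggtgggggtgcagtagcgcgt

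Counting the start-site base as 0, the Arntl window shown held a ROR core that begins at position 30, the Per1 window shown an E-box at -166, the Tef window an E-box at -138, and the Per3 window a pair of D-boxes at -205 and -158. The RefSeq table gave 14 windows for 9 of the 10 members. Arntl and Per1 have 2 windows each, and the windows not shown held no ROR core and no E-box, respectively. Tef also has a window not shown, which held an E-box at -127, and Clock has several windows. An E-box was present in 7.15% of all 32851 windows of this length, a D-box in 2.32% and the ROR core in 2.61%. The windows of Npas2, Clock, Dbp, Nr1d1 and Nr1d2 held none of these letters. A looser form of the ROR core, TNGGTCA, was present in 11.0% of all windows. It matched at 3 places in the Arntl window shown, among them the ROR core at position 30. It also matched at -118 in the Per3 window shown and at -219 in the Tef window shown. These matches are descriptions of sequence and not measured binding.

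Acsl1 itself lay between 631 and 1950 in the knockout libraries and between 6373 and 16661 in the control libraries, so every library matched its genotype label. Values throughout are RSEM gene estimates that the authors scaled to a common upper quartile, here called the normalised signal. Implied depth was 11.5 to 21.1 M reads per library. Summed ventricular cardiomyocyte markers (8 of 8 present) were high in every library, while the summed atrial markers (6 of 6 present) ran from 2222 to 7393 in control vehicle, 4638 to 66051 in knockout vehicle, 2169 to 37008 in control rapamycin and 8867 to 61241 in knockout rapamycin hearts. Summed fibroblast markers (8 of 8) ran from 23214 to 31098, 28563 to 61187, 28305 to 39790.0 and 34211 to 62867 in the same order, and summed erythroid markers (5 of 7) from 34825 to 84432, 7413 to 26745, 22362 to 56111 and 16577 to 59392. For knockout against control under vehicle, 8 of 8 fibroblast markers had a positive fitted difference (median 0.84) and 5 of 5 erythroid markers a negative one (median -1.67). The part of these cells in the members' values was not tested. Control vehicle libraries 1 and 3 stood apart: their score for long against short transcripts was -0.99 and -1.08, against -0.42 to 0.54 in the other 18. In tissue RNA, fewer cells of a type and less RNA per cell cannot be told apart.

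Among the activators, Arntl differed more between hearts of 1 group than between groups. Its normalised signal in replicates 1 to 5 was 165, 60.8, 90.5, 216 and 721 in control vehicle hearts and 353, 441, 97.4, 357 and 215 in knockout vehicle hearts. Under rapamycin it was 121, 168, 281, 103 and 566 in control hearts and 249, 184, 208, 277 and 601 in knockout hearts. Replicate 5 was the highest Arntl library in 3 of the 4 groups. Those 3 libraries all came from pool 4, as named in the labels. The other libraries of pool 4, knockout vehicle 4 and knockout rapamycin 4, read 357 and 277. The part of the pool in the Arntl values was not tested. The ranges of all groups overlapped, and the highest library was 11.9-fold above the lowest.

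Npas2, which can stand in for Clock as the partner of ARNTL, followed a like order. It read 22.3, 56.9, 18.6, 43.2 and 144 in control vehicle hearts and 136, 151, 33.8, 111 and 60.6 in knockout vehicle hearts. With rapamycin it read 39.3, 45.9, 53.9, 40.7 and 119 in controls and 88.2, 57.4, 51.5, 73.9 and 173 in knockouts. Control vehicle libraries 1 and 3 held the lowest pair of Npas2 values, and the groups overlapped.

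Clock, the other partner, read 478, 565, 237, 1064 and 1202 in control vehicle hearts and 1209.6, 1508, 1002, 1294 and 773 in knockout vehicle hearts. In the rapamycin arm it read 617, 886, 1099, 1158 and 1201 in controls and 1279.6, 1374, 790.4, 1027 and 1348 in knockouts. The low Clock values of the control vehicle group were libraries 1, 2 and 3, and the Clock transcript is the longest of the members at 9.744 kb. Across the 20 libraries its log2 signal had r = 0.83 with the score for long against short transcripts, and r = 0.58 over the 18 libraries without control vehicle 1 and 3. In the same 2 sets of libraries r was 0.62 and 0.56 for Per3 and 0.62 and 0.28 for Npas2. The lowest member was Dbp, at -0.43 and -0.19. These coefficients are descriptions, and the part of transcript length in the members' values was not tested.

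Of the repressors that act through PER proteins, Per2 varied most. It read 82.6, 598, 188, 92.4 and 119 in control vehicle hearts and 144, 241, 861, 151 and 129.8 in knockout vehicle hearts. Under rapamycin it read 527, 204, 110.0, 532 and 89.0 in controls and 239.7, 298, 351, 151 and 175 in knockouts. Control vehicle 2 and knockout vehicle 3 were the highest Per2 libraries of their groups, and the highest for Per3 too. Per3 ran from 84.8 to 355 in control vehicle, 90.0 to 545 in knockout vehicle, 125 to 402 in control rapamycin and 105 to 287 in knockout rapamycin hearts. Per1, which also answers to glucocorticoid hormone, moved over a narrower span, from 1053 to 1921, 713 to 1823, 657 to 1888 and 1366 to 2000.0 in the same order of groups.

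Nr1d1 split the libraries into clusters. It read 4716, 975, 645, 4131 and 3258 in control vehicle hearts and 2969.5, 3054, 795, 3596 and 3601 in knockout vehicle hearts. Under rapamycin it read 703, 3889, 5470.0, 5166 and 3583 in controls and 3712, 4316, 918, 3733 and 2743 in knockouts. There were 5 libraries between 645 and 975 and 15 between 2743 and 5470.0, with a gap of 1.49 on the log2 scale between them, and every group held at least 1 library of the low cluster. Nr1d2, its paralog, varied least of all members: from 2763 to 4065, 2891 to 4571, 2939.5 to 4553 and 2766 to 4248 in control vehicle, knockout vehicle, control rapamycin and knockout rapamycin hearts, or 1.65-fold from end to end.

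The output factor Dbp read 3607, 1742, 2288, 2150.3 and 398 in control vehicle hearts and 692, 848, 1017, 1046 and 1745 in knockout vehicle hearts. Under rapamycin it read 1040.0, 2523, 1783, 3748 and 564 in controls and 1533, 2645, 739, 1159 and 489.8 in knockouts. In 3 of the 4 groups, all but knockout vehicle, the library lowest in Dbp was the one highest in Arntl. Each of these was replicate 5 and came from pool 4. Tef ranged from 3031 to 6691, 3144 to 7885, 2345 to 6105 and 2936 to 5139 in the same order of groups. The 5 libraries low in Nr1d1 had Tef between 5139 and 7885, against 2345 to 5249.6 in the other 15, and Arntl between 60.8 and 208, against 103 to 721.

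**Figure D1:**
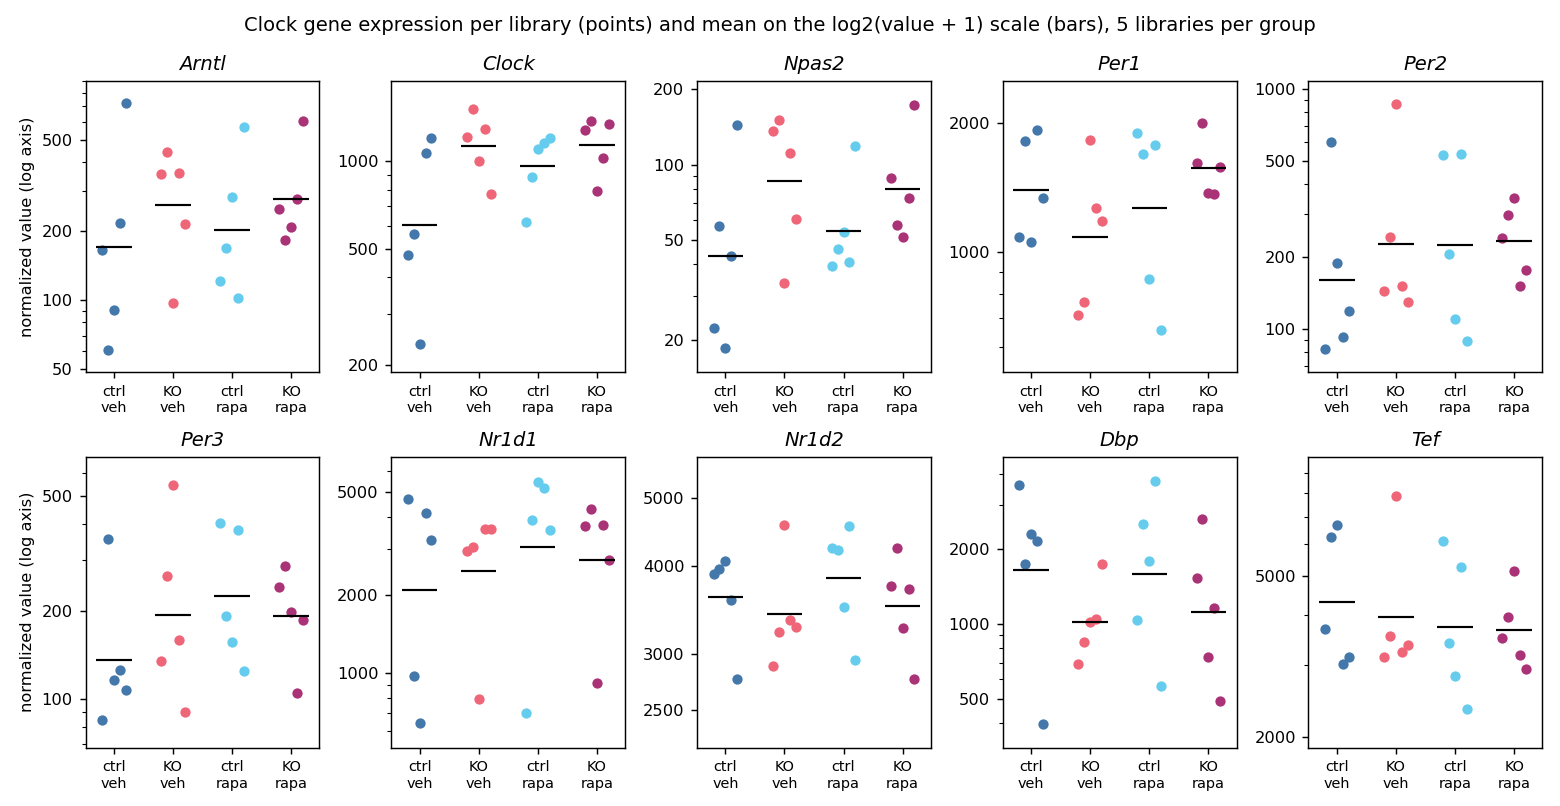
Normalised signal of the 10 members in each of the 20 libraries, by group, on a log axis, with bars at the group mean on the log2 scale. The 5 libraries low in Nr1d1 (645 to 975) lie in all 4 groups, and no member separates any pair of groups.

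Levels between genes were compared per kb of the longest transcript. Over the 20 libraries the mean ± SD of the normalised signal per kb was 1139 ± 557 for Nr1d1, 938 ± 348 for Tef, 864 ± 537 for Dbp and 780 ± 123 for Nr1d2, and neighbours in that order did not differ beyond their spread. Per1 followed at 297 ± 92.2, below Nr1d2 by more than both SDs. Clock at 103 ± 34.5 lay below Per1 in the same way. Arntl at 94.1 ± 63.1, Per2 at 45.3 ± 35.9, Per3 at 35.5 ± 20.8 and Npas2 at 17.9 ± 11.0 each overlapped the gene before.

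The question the design puts to these genes is whether losing Acsl1, giving rapamycin, or both shifts the clock. With limma across 13548 tested genes (all 10 members among them), 0 of the 10 members passed an adjusted p of 0.05 for knockout against control under vehicle, where 0.244% of all tested genes did. At an unadjusted p of 0.05, 1 member (Clock) passed, and 31.8% of all tested genes did. The highest fitted differences were those of Npas2, 0.98 ± 0.50 (SE, log2 scale; limma adjusted p = 0.180, n = 5 and 5), and Clock, 0.90 ± 0.33 (limma adjusted p = 0.106). The lowest fitted value was that of Dbp, -0.70 ± 0.55 (limma adjusted p = 0.369). The 95% interval of the Dbp difference ran from -1.85 to 0.45. Arntl stood at 0.60, Per3 at 0.51, Per2 at 0.50, Nr1d1 at 0.25, Nr1d2 at -0.08, Tef at -0.12 and Per1 at -0.37. Without control vehicle libraries 1 and 3, Npas2 was at 0.28, Clock at 0.33 and Dbp at -0.17. Without control vehicle 5, Clock (1.14, limma adjusted p = 0.0323) and Npas2 (1.40, limma adjusted p = 0.0402) passed, and without knockout vehicle 5 Clock did (1.03, limma adjusted p = 0.0463). In those settings 22.8% and 19% of all tested genes were called, so the members' share was not above the background. With 1 library left out, the difference ran from 0.23 (without control vehicle 2) to 1.12 (without control vehicle 5) for Arntl. It ran from 0.018 (without knockout vehicle 3) to 0.98 (without control vehicle 2) for Per2, and from 0.14 to 0.86 without the same libraries for Per3. The members' median difference was 0.37, against 0.07 over all tested genes.

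**Figure D2:**
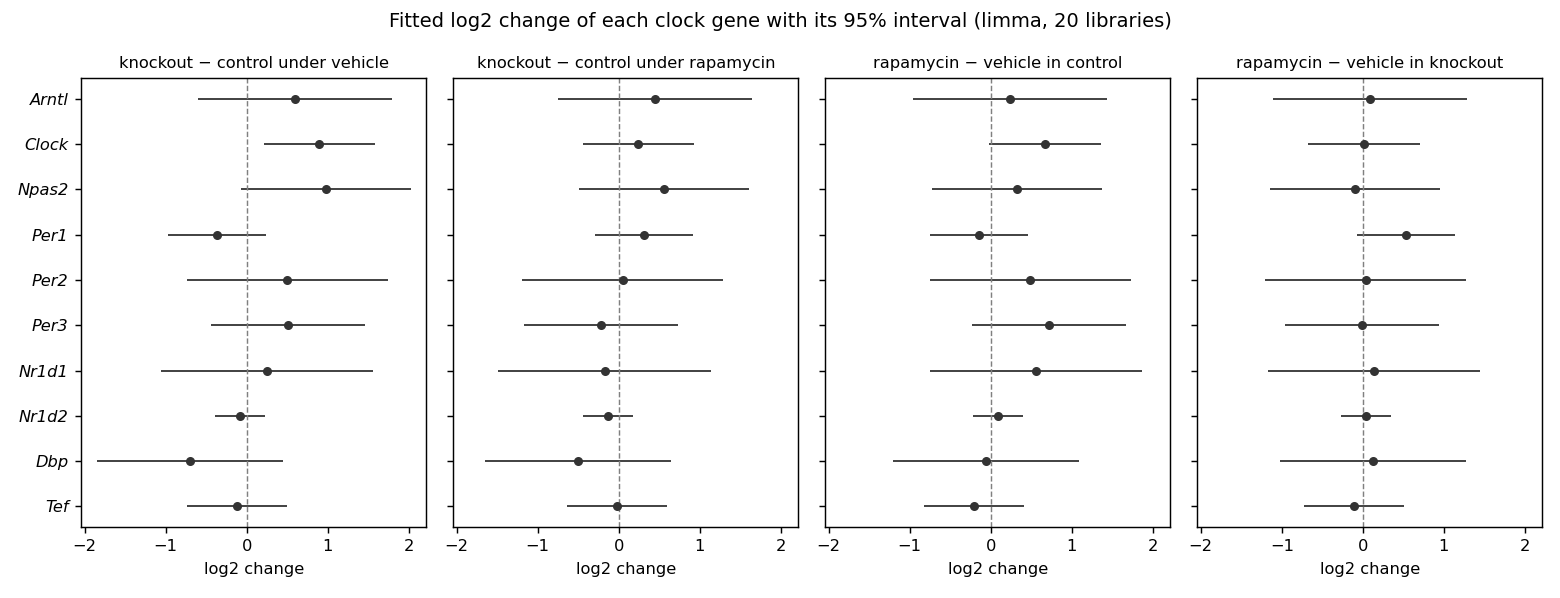
Fitted log2 change of each member with its 95% interval in the 4 pairwise comparisons, from limma on log2(normalised signal + 1). Intervals of the knockout effect under vehicle run from -1.85 to 0.45 for Dbp and from 0.21 to 1.58 for Clock, with no member past an adjusted p of 0.05.

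An exact two-sided permutation test of 5 against 5 libraries, run on each member alone, gave p = 0.0794 for Clock and p = 0.175 for Npas2 in that comparison, and no member fell under 0.05, against 13.7% of all tested genes. No member had groups that did not overlap, against 2.32% of all tested genes. Under rapamycin, the knockout effect on the members ran from -0.51 in Dbp to 0.55 in Npas2. There 0 members passed adjustment by limma, at 0.0221% of all tested genes, and 0 the unadjusted threshold, at 2.97%. None was under 0.05 in the exact permutation test (4.76% of all tested genes) or free of overlap (0.878%).

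Rapamycin in control hearts gave Per3 a fitted change of 0.72 ± 0.45 (SE; limma adjusted p = 0.395, n = 5 and 5) and Clock 0.67 ± 0.33 (limma adjusted p = 0.334). In limma 0 members passed adjustment, as did 0% of all tested genes, and 0 passed the unadjusted threshold, which 14.9% of all tested genes did. The exact permutation test put 0 members under 0.05 (7.62% of all tested genes), and 0 were free of overlap (1.46%). Rapamycin in knockout hearts gave Per1 its largest value, 0.54 ± 0.29 (SE; limma adjusted p = 0.922; exact permutation p = 0.0873, n = 5 and 5). In limma 0 members passed (0.00738% of all tested genes), and 0 were under the unadjusted threshold (5.71%). In the exact permutation test 0 were under 0.05 (7.37%), and 0 were free of overlap (1.85%).

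The interaction, which asks whether the knockout effect differs between drug arms, was -0.73 for Per3, 0.68 for Per1 and -0.65 for Clock. Limma put 0 members past adjustment (0% of all tested genes) and 0 past the unadjusted threshold (8.3%). Averaged over drug arms, the knockout effect was 0.57 ± 0.23 (SE) for Clock, with a limma adjusted p of 0.242, and 0.77 ± 0.36 for Npas2, with a limma adjusted p of 0.259. There limma called 0 members (0.443% of all tested genes), and Clock and Npas2 were the 2 members under the unadjusted threshold (19.1%). Averaged over genotypes, rapamycin gave 0.35 for Per3 and 0.34 for Clock, with 0 members called by limma (0.125% of all tested genes) and 0 under the unadjusted threshold (9.23%).

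The spread between hearts of 1 group was large for these genes. The within-group SD on the log2 scale was 1.10 for Nr1d1, 1.04 for Per2, 1.01 for Arntl, 0.97 for Dbp, 0.87 for Npas2 and 0.79 for Per3. Clock (0.57), Tef (0.51), Per1 (0.50) and Nr1d2 (0.24) spread less. The members' median was 0.83, against 0.31 over all tested genes, whose 95th percentile was 0.86. Among the 1000 genes nearest to each in mean signal, Nr1d1 stood at percentile 99.8 of within-group SD, Dbp at 99.6, Per2 at 99.2 and Arntl at 99.0. Per3 stood at 97.9, Clock at 96, Npas2 at 95, Per1 at 94.6 and Tef at 94.2, while Nr1d2 stood at 49.6.

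**Figure D3:**
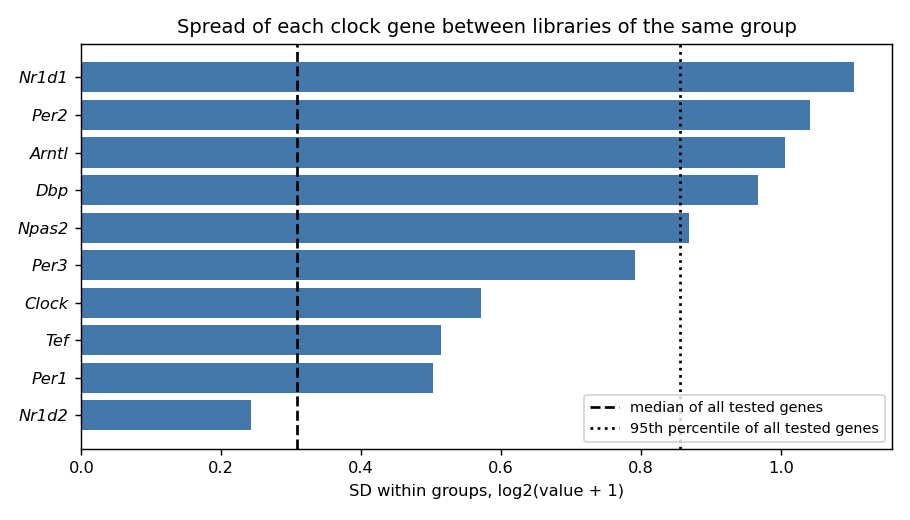
Bars give the within-group SD of each member on the log2(normalised signal + 1) scale, and lines mark the median and the 95th percentile of all tested genes. Of the members, 5 lie above the 95th percentile of 0.86, and Nr1d2, at 0.24, lies below the median of 0.31.

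That spread was shared between some pairs of members. Over the 20 libraries Arntl rose with Npas2 (Pearson r = 0.82, permutation p = 2e-05, adjusted over 9 relations 6e-05; Spearman rho = 0.86) and with Clock (r = 0.64, permutation p = 0.00162, adjusted 0.00292; rho = 0.71). It ran against Nr1d2 (r = -0.86, rho = -0.86) and Tef (r = -0.83, rho = -0.85), each with a permutation p of 1e-05, the smallest that 100000 permutations can give. Dbp also ran against Arntl, with r = -0.69 (permutation p = 0.00108, adjusted 0.00243; rho = -0.64). For Per2, r was -0.64 (permutation p = 0.00278, adjusted 0.00417; rho = -0.56), for Per1 -0.50 (permutation p = 0.0251, adjusted 0.0282; rho = -0.49) and for Per3 -0.48 (permutation p = 0.0342; rho = -0.38, permutation p = 0.0958).

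For Nr1d1, whose values form clusters, r with Arntl over all 20 libraries was positive at 0.51 (permutation p = 0.0227, adjusted 0.0282). Its rho was 0.13 (permutation p = 0.582). Within the 15 libraries above its gap, r was -0.73 and rho -0.78 (permutation p for r = 0.00214). That subset was cut on Nr1d1 itself after the values had been seen. In those libraries Arntl had r = -0.97 with Dbp, -0.92 with Nr1d2, 0.86 with Npas2 and -0.71 with Tef. Clock (r = 0.46, permutation p adjusted 0.107), Per1 (-0.47, 0.107), Per2 (-0.41, 0.147) and Per3 (-0.28, 0.311) did not pass there. Leaving out the 2 libraries farthest from the median of Arntl, control vehicle 2 and 5, gave r of 0.90 for Npas2, -0.89 for Nr1d2, -0.83 for Tef, -0.66 for Dbp and 0.61 for Clock. Per3 was at -0.35 there (permutation p = 0.158). The Per3 relation missed the adjusted threshold without any 1 of control vehicle 2, control vehicle 5, knockout vehicle 3, control rapamycin 1, control rapamycin 4 and control rapamycin 5, with r from -0.40 (permutation p = 0.0887, without knockout vehicle 3) to -0.45. The Per1 relation missed it without any 1 of control vehicle 2, knockout vehicle 2, knockout vehicle 3 and control rapamycin 5, with r from -0.41 (permutation p adjusted 0.0785, without control rapamycin 5) to -0.47. The Nr1d1 relation missed it without any 1 of control vehicle 2, control vehicle 3 and knockout vehicle 3, with r from 0.43 to 0.45. Without control vehicle 2 and 5 together, Nr1d1 missed it too (r = 0.45, permutation p adjusted 0.0719). With each value centred on its pool, the coefficients were 0.78 for Npas2, -0.80 for Nr1d2, -0.77 for Tef, 0.62 for Clock, -0.56 for Per1, -0.55 for Per2, -0.50 for Dbp and -0.34 for Per3, which no longer passed (permutation p = 0.141). Pools of 5 libraries are too small for a coefficient of their own. With each value centred on its group they were 0.81, -0.88, -0.84, 0.62, -0.56, -0.75, -0.66 and -0.60 in the same order.

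**Figure D4:**
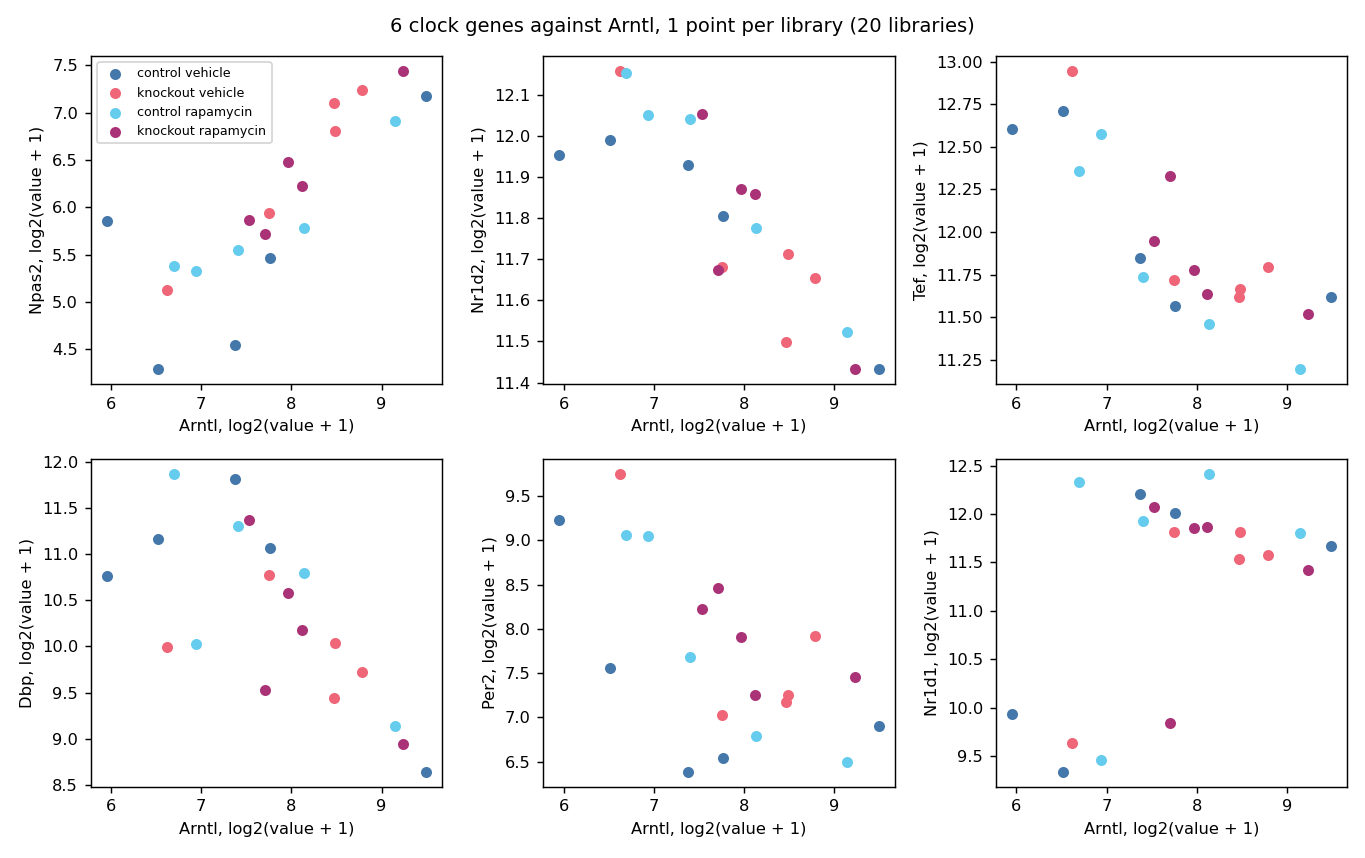
Npas2, Nr1d2, Tef, Dbp, Per2 and Nr1d1 against Arntl, each as log2(normalised signal + 1), 1 point per library, coloured by group. Npas2 climbs with Arntl (r = 0.82), Nr1d2 and Tef descend (r = -0.86 and -0.83), and Nr1d1 shows 5 libraries apart from 15.

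Among the remaining pairs, centred on group means and described without a p, Per2 was closest to Per3 (r = 0.92) and Tef (r = 0.91). Nr1d2 went with Dbp (r = 0.75) and against Npas2 (r = -0.81), and Nr1d1 went against Tef (r = -0.80). The Nr1d1 coefficients depended on its clusters. Within the 15 libraries above its gap, a cut made after the values were seen, uncentred r was 0.38 with Tef and 0.80 with Dbp. Over all 20 libraries the uncentred r of Nr1d1 was -0.80 with Tef and 0.21 with Dbp. Per3 also went with Tef (r = 0.75), Nr1d2 with Tef (r = 0.73) and Clock with Npas2 (r = 0.71). Npas2 went against Dbp (r = -0.71). Some of the other pairs were weak, such as Clock with Per3 (r = 0.0035) and Per1 (r = 0.014). Dbp was likewise weak with Per3 (r = 0.12) and Per2 (r = 0.16). All 20 libraries enter each centred coefficient, so depth and any library that stands apart are shared between the pairs.

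**Figure D5:**
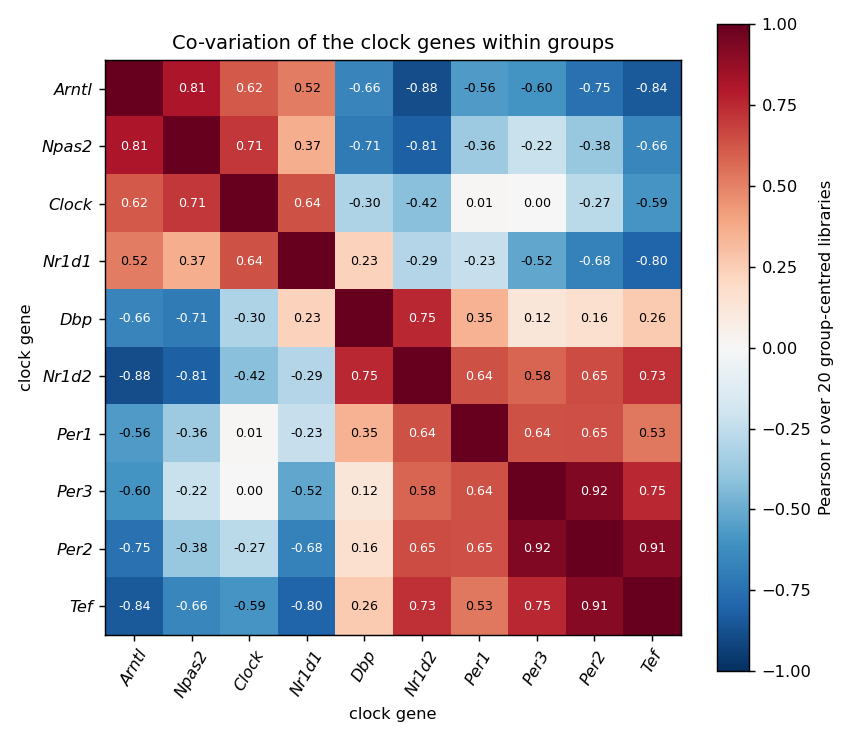
Pearson r between every pair of the 10 members over 20 libraries after centring each value on its group. Arntl, Npas2 and Clock are positive with each other, and the Per2, Per3 and Tef block reaches 0.92.

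Ranked among the 13547 other tested genes by group-centred r to Arntl, Hlf, the third PAR bZIP factor, was the lowest of all at -0.92, with Nr1d2 and Tef next, and Npas2 stood 13th from the top. Besides members, the highest were Adamts4, a secreted protease (r = 0.91), A830007P12Rik (0.89), Atg16l2 (0.88), Dtx4 (0.86) and Rnf144a (0.86). The lowest after Hlf were Ier3 (-0.83), Mid1ip1 (-0.83), Wee1, a kinase that holds back entry into mitosis (-0.80), and Ccrn4l, the deadenylase nocturnin (-0.79). For Dbp the highest were Ppat (0.86), the sarcomere protein Tcap (0.85), Gm129, the clock repressor also called Ciart (0.82), Tspan4 (0.81) and Coq10b (0.81). Among the lowest were 1700017B05Rik (-0.83), Inpp5d (-0.82), Zfp69 (-0.80) and Sh3pxd2b (-0.78). Adamts4 and Zfp69 had low mean normalised signals, 14.0 and 13.0, near the value of 10 used to keep genes.

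Of 18 other clock regulators, 17 were tested, Rorb being too low, and limma put 0 past adjustment in any of the 7 comparisons. Of 10 clock-controlled output genes, all were tested and 0 passed. Between 0% and 0.443% of all tested genes passed in these comparisons, so counts of 0 in lists of this size are at the background. At the unadjusted threshold, 2 regulators (Btrc and Timeless) and 0 output genes passed for the knockout under vehicle, against 31.8% of all tested genes. Under vehicle, the median knockout effect was 0.12 over the regulators and -0.24 over the output genes. The within-group SD of Gm129 was 1.13, that of the cryptochrome gene Cry1 0.54 and that of Cry2 0.43. Nfil3, a repressor that competes for D-boxes, had r = -0.75 with Dbp, and Bhlhe40, an E-box repressor, had r = 0.69.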

How the data were processed

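Ventricular poly(A) RNA was measured in 20 libraries, 4 groups of 5, spread over 4 pools named in the labels, each with its own lane tag. The deposited values are a normalised signal for each gene, which the authors made by scaling RSEM estimates to a common upper quartile, with build mm9, Picard 1.64 and SAMtools, per the submitters' processing notes. The aligner is not given in the sources used here. Depth was read from the step between low values, of which 87.2% to 89.0% were whole within 0.05 reads, too few to treat reads as recovered.

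Values were analysed as log2(value + 1) with limma 3.58.1 in R 4.3.3 (a mean per group, intensity trend), keeping genes of at least 10 in at least 5 libraries, with Benjamini-Hochberg adjustment over all 13548 and a threshold of 0.05. Fold changes on this scale understate changes of low genes. Single members were also compared by exact permutation over 252 regroupings in R. Correlations were tested by 100000 permutations with numpy 2.4.6, with ranks from scipy 1.17.1. The fit was tested on simulated data. P-values measure the spread between these libraries. Alternatives covered the pseudocount, filters, normalisation, pool and replicate terms, and each library left out.

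The members and gene lists were chosen with earlier results of these data known. Named genes are the members, the listed clock genes, Acsl1, and the 5 tested genes at each end of r to Arntl and to Dbp, of which 1 is not reported here. Transcript lengths came from GENCODE M21. Start-site windows came from RefSeq and were searched first with the ROR core TNGGTCA. A longer form was tried next, and the stricter TAGGTCA, shown in capitals, was taken after the matches of both had been seen.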

Additional observations from a re-analysis of the deposited data

Results flagged for a closer look

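Across 40 sets of 5 libraries (10 members in 4 groups), 5 had 1 library farther from the rest than Dixon's limit for 5 values allows, and chance alone flags about 1 in 20. Nr1d1 was low in knockout vehicle library 3, at 795, and in control rapamycin library 1, at 703. Tef was high in the same knockout vehicle library, at 7885. Per3 was high in control vehicle library 2, at 355. Npas2 was high in control rapamycin library 5, at 119.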

How the results depend on the processing

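The count of members past an adjusted p of 0.05 was 0 under every alternative run in 6 of the 7 comparisons. For knockout against control under vehicle it ran from 0 to 2 with 1 library left out: without control vehicle 5, Clock (1.14, limma adjusted p = 0.0323) and Npas2 (1.40, limma adjusted p = 0.0402) passed among 3090 genes called, and without knockout vehicle 5 Clock (1.03, limma adjusted p = 0.0463) passed among 2569. The number of members under 0.05 in the exact permutation test ran from 0 to 2 in that comparison with 1 library left out and from 0 to 1 in the other 3 pairwise comparisons. Over all tested genes and settings, calls ran from 3 to 3090 for that comparison, 2 to 14 for the knockout under rapamycin, 0 to 58 for rapamycin in knockouts, 11 to 150 for the averaged knockout effect and 0 to 35 for averaged rapamycin. Leaving out control vehicle libraries 1 and 3 turned the sign of Nr1d2 (0.010) and Tef (0.018). With 1 library left out, Nr1d1 ran from -0.18 to 0.65 and Tef from -0.37 to 0.039. Of the 9 relations with Arntl, 9 passed adjustment for r over all libraries, among them Nr1d1, whose pooled r is positive (0.51) and whose rho is 0.13 (permutation p = 0.582), 6 to 9 with 1 library left out, and 5 within the 15 libraries above the Nr1d1 gap, an alternative chosen after seeing the data, where r for Nr1d1 was -0.73. The cause was not tested.

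With the replicate number as a block, 0 members were called in all 7 comparisons, where 0% to 0.458% of all tested genes were. Libraries of the same number had correlations of -0.51 to 0.43 between their deviations, and 4 of 20 correlated best with their own number, so the numbers are not treated as pairs. Npas2, the lowest of the members, is the one whose values depth limits most.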

Other observations

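The glucocorticoid-responsive and immediate early genes were read beside the members because Per1 belongs to the first list. These genes were named after their values were seen, and the coefficients are descriptions over 20 group-centred libraries. Of the 7 glucocorticoid-responsive genes other than Per1, 6 had a negative r with Arntl, from -0.78 in Tsc22d3, which encodes the hormone-induced protein GILZ, to -0.28 in Zbtb16, and Dusp1 had 0.23. With Per1 the values were 0.66 for Nfkbia, 0.55 for Tsc22d3, 0.46 for Fkbp5, 0.46 for Cebpd, 0.24 for Zbtb16, 0.033 for Sgk1 and -0.46 for Dusp1. Fkbp5, a chaperone partner of the glucocorticoid receptor, ran from 232 to 4312 between libraries, and Zbtb16, a transcription factor, from 280.2 to 5097. The 8 immediate early genes had r with Arntl from 0.30 in Nr4a1 to 0.75 in Egr2, and with Per1 from -0.52 in Junb to 0.16 in Nr4a1, with Atf3 at 0.0096.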
